A study of Mus musculus with 12 samples.

Results

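The spindle assembly checkpoint genes examined here were Mad1l1, Mad2l1, Bub1, Bub1b, Bub3 and Ttk, taken by symbol as 6 of the 23230 rows of a table of ERCC-scaled FPKM values. All 6 were among the 11502 genes that reached 1 FPKM in 1 or more libraries and were tested. FPKM scales the sequenced fragments of a gene for transcript length and library size. The authors then multiplied it by a factor from spike-in (ERCC) RNA added in equal amount to each sample. Values can so be set against each other per sample of oocytes among libraries of the same replicate number. The factor is relative to the WT growing library of that number, so the 2 replicates of a group do not share 1 spike-in scale. The table covers mouse oocytes of a C57BL6/ICR hybrid strain, either WT or Zar1/2-null, at the growing, GV (fully grown, with an intact germinal vesicle) and MII (ovulated) stages. The study asked what the RNA-binding proteins ZAR1 and ZAR2 do to the maternal transcriptome. Each of the 6 groups held 2 Smart-seq2 libraries of 10 pooled oocytes. Less RNA in each oocyte and fewer intact oocytes in the lysate cannot be told apart in such pools. Zar1/2-null females carried CRISPR/Cas9 mutations of both genes, a short deletion followed by a stop codon in Zar1 and a frame-shifting deletion in the first exon of Zar2 (listed as Zar1l), whereas WT females carried neither. Growing oocytes came from females labelled 13.5 days old, GV oocytes from 21-day-old females 44 h after PMSG, and MII oocytes were taken 16 h after hCG. The study's methods give a slightly younger age for the growing stage. MII is the label of all ovulated oocytes, but by the study's microscopy ovulated Zar1/2-null oocytes had not completed the first meiotic division. In the comparisons between genotypes at MII, genotype and meiotic phase therefore cannot be told apart in these libraries. The study reports that the decay of maternal mRNA was impaired in ovulated null oocytes. It also held WT oocytes in meiosis I with nocodazole and found the decay of selected mRNAs unchanged by RT-qPCR. From this it proposes that the delayed decay came from the lack of ZAR1/2 and not from the arrest. Replicates are numbered, but nothing says whether they came from separate females, and p-values therefore measure only the spread between these samples.

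The spindle assembly checkpoint delays anaphase while any kinetochore lacks a proper attachment to spindle microtubules. The kinase TTK (also called MPS1) starts the signal at such kinetochores, BUB1 and BUB3 are recruited there, and MAD1 (Mad1l1) offers a platform on which MAD2 (Mad2l1) changes its fold. MAD2, BUBR1 (Bub1b) and BUB3 then bind CDC20 and hold back the anaphase-promoting complex, the ubiquitin ligase that marks securin and cyclin B for destruction. Fully grown oocytes transcribe little, so they go through both meiotic divisions on stored mRNA, and many stored mRNAs carry short U-rich elements near their 3′ ends, known as cytoplasmic polyadenylation elements, that govern their poly(A) tails.

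The 3′ ends are shown here because the 6 transcripts divided at maturation, as described below, and these ends differed between them. For each gene the coding model with the longest coding sequence was taken from GENCODE vM1 (build NCBIM37, that is mm9), and the last 100 bases of its 3′ UTR were searched on the transcribed strand for a polyadenylation signal (AATAAA or ATTAAA) and for the elements TTTTAT or TTTTAAT. A 30-base stretch with the signal is given for each, with both kinds of motif in capitals where they fall inside it. All 6 stretches matched the genome sequence at the positions given.
Bub1b, chr2:118467283-118467312, + strand: ctctcctttcactgtgtaTTTTATAATAAA
Mad2l1, chr6:66490951-66490980, + strand: atttctgtAATAAAgaactcttaTTTTAAT
Bub3, chr7:138715361-138715390, + strand: ctcaccctctcaatttgcctgtttATTAAA
Mad1l1, chr5:140484669-140484698, - strand: gtgtccacagtctcagactaatgaAATAAA
Bub1, chr2:127626875-127626904, - strand: tactatttatgtatgtttaaaaaaAATAAA
Ttk, chr9:83765944-83765973, + strand: gctggaatgttgaagagctctgtaAATAAA

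Bub1b and Mad2l1 were the 2 members with such an element in the last 100 bases. In Bub1b the element TTTTAT stood directly before the signal, and another copy lay further upstream within the same 100 bases. In Mad2l1 the element TTTTAAT lay downstream of the signal, near the annotated end. Ttk had 2 copies in its 3′ UTR, both outside the last 100 bases, and Mad1l1, Bub1 and Bub3 had none in the whole 3′ UTR. Both annotated coding models of Bub1b and of Mad2l1 held an element in their last 100 bases, and no coding model of the other members did. Over all coding genes with a 3′ UTR of at least 100 bases, 17.6% of 17969 held an element in that window, so 2 of 6 is a description and no test was made.

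The targeted genes were read first. Zar1l stood at 639 and 644 FPKM in WT growing libraries and 504 and 533 FPKM in WT GV libraries, against 13.2 to 20.9 FPKM in the Zar1/2-null libraries of these stages. Zar1, whose small deletion leaves most of the transcript, was at 407 and 460 FPKM in Zar1/2-null growing oocytes and at 603 and 725 FPKM in WT ones. At MII Zar1 was higher in the null (190 and 194 FPKM) than in the WT (83.6 and 72.4 FPKM), and Zar1l was low in both genotypes (1.01 to 4.72 FPKM). Oocyte markers (10 genes such as Gdf9 and Zp3) summed to between 3345.1 and 17396.9 FPKM in a library. Granulosa and cumulus markers summed to between 5.22 and 33.9 FPKM, immune markers to between 0.969 and 24.2 FPKM, and oviduct markers to at most 1.32 FPKM. Of the granulosa and cumulus list, Amh was at 0 in 5 of 6 groups. Cyp19a1 of that list averaged 17.9 FPKM in WT growing and 11 FPKM in WT GV oocytes, and Nr5a2 averaged 9.83 FPKM in Zar1/2-null growing oocytes. Of the immune list, C1qb stood at a mean of 21.7 FPKM in WT growing and 10.8 FPKM in WT GV oocytes, whereas the whole list summed to 2.83 to 5.44 FPKM in the Zar1/2-null libraries of these stages. Ptprc, Cd52, Tyrobp, C1qa and Cd53 were listed at 0 in both WT growing libraries, and the part of such RNA in the results was not tested. The deposited values had been multiplied by a spike-in factor of 1 in WT growing libraries, 0.836 and 0.697 in WT GV, 0.225 and 0.228 in WT MII, 0.862 and 0.779 in Zar1/2-null growing, 0.533 and 0.583 in Zar1/2-null GV, and 0.283 and 0.252 in Zar1/2-null MII. Dividing it out moved the median log2 change of all genes by over 0.1 in most comparisons, for example from -0.38 to -0.03 for Zar1/2-null against WT at the GV stage and from -1.28 to -0.43 for WT MII against GV. For this reason all-gene medians and values without ERCC scaling stand beside the changes of the 6 genes, and for partner genes the calls lost without it are named.

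The 6 transcripts were not equally abundant. In WT growing oocytes Mad2l1 was highest, followed by Bub1b, Ttk, Bub3, Bub1 and Mad1l1, and each of these levels, in length-normalized FPKM, lay apart from the next in both libraries. Mean levels ran from 255 ± 22.7 FPKM (SD, n = 2) for Mad2l1 to 15 ± 3.54 FPKM (SD, n = 2) for Mad1l1. Together the members took 0.128% and 0.127% of the summed FPKM of the WT growing libraries. That share was 0.221% in both WT MII libraries, and 0.149% and 0.171% in the Zar1/2-null MII libraries.

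Ttk, the kinase at the head of the signal, measured 158 and 160 FPKM in WT growing, 130 and 97.4 FPKM in WT GV and 6.99 and 7.8 FPKM in WT MII libraries. The Zar1/2-null values were 125 and 100 FPKM, 68 and 86.9 FPKM, and 9.2 and 5.62 FPKM at the same stages. The null libraries were the lower ones at the growing and GV stages without overlap, and at MII the genotypes overlapped. Bub1, the kinase that docks at the kinetochore, measured 63.2 and 58.2 FPKM in WT growing, 41.9 and 33.3 FPKM in WT GV and 2.23 and 3.04 FPKM in WT MII libraries. The Zar1/2-null libraries held Bub1 at 50.1 and 41.7 FPKM, 21.6 and 24.6 FPKM, and 2.56 and 2.39 FPKM. Its pattern was that of Ttk, lower in null oocytes before maturation and overlapping after it.

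Bub3, the small adaptor that brings BUB1 and BUBR1 to kinetochores, measured 107 and 109 FPKM in WT growing, 94.3 and 73.9 FPKM in WT GV and 12.9 and 11.7 FPKM in WT MII libraries. The Zar1/2-null libraries gave 108 and 89.4 FPKM, 45.3 and 59.9 FPKM, and 24 and 21.2 FPKM. Bub3 thus overlapped between genotypes in growing oocytes, lay lower in every null GV library and lay higher in every null MII library. Mad1l1, the kinetochore platform for MAD2, measured 12.5 and 17.5 FPKM in WT growing, 10.9 and 9.83 FPKM in WT GV and 1.01 and 1.41 FPKM in WT MII libraries. In Zar1/2-null oocytes it was at 11.5 and 13.4 FPKM, 7.67 and 9.5 FPKM, and 1.8 and 1.57 FPKM. It was the least abundant member throughout, and the lowest value, in WT MII replicate 1, rested on an estimated 111 fragments with a counting error of 9.48%.

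Mad2l1, the protein of which closes around CDC20, measured 271 and 239 FPKM in WT growing, 260 and 189 FPKM in WT GV and 164 and 134 FPKM in WT MII libraries. The Zar1/2-null values were 189 and 145 FPKM, 160 and 169 FPKM, and 146 and 120 FPKM. The null libraries lay below the WT ones at the growing and GV stages, and at MII the genotypes overlapped. Bub1b, encoding BUBR1, measured 203 and 221 FPKM in WT growing, 216 and 221 FPKM in WT GV and 95.9 and 110 FPKM in WT MII libraries. In Zar1/2-null oocytes it was at 167 and 177 FPKM, 167 and 143 FPKM, and 129 and 151 FPKM. Bub1b was lower in every null library up to the GV stage and higher in every null MII library. In both Zar1/2-null growing and MII oocytes Bub1b had the highest mean, with values that overlapped those of Mad2l1, and the values of both genes also overlapped in the GV oocytes of either genotype.

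**Figure D1:**
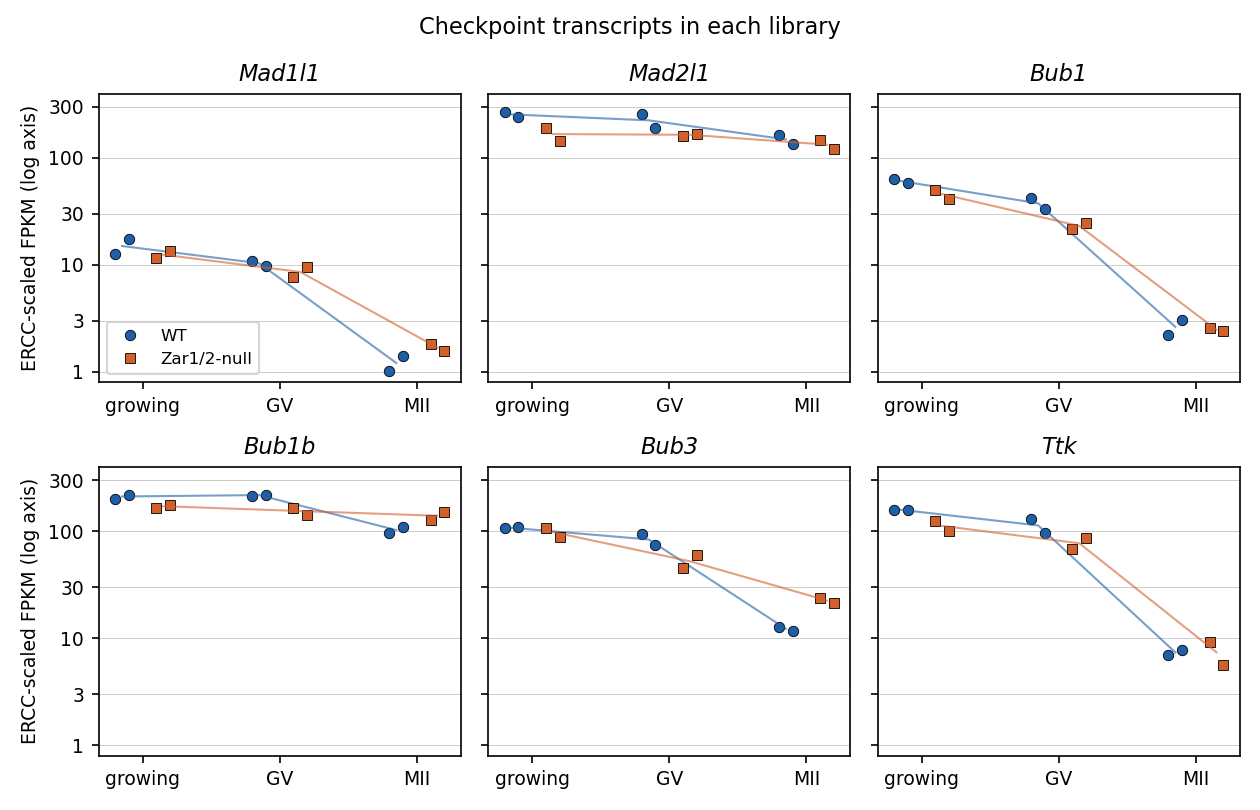
Each panel plots 1 checkpoint gene, with ERCC-scaled FPKM on a log axis against stage, 1 point per library (WT circles, Zar1/2-null squares) and lines through the group means. Ttk, Bub1 and Mad1l1 fell steeply from GV to MII in both genotypes, Mad2l1 and Bub1b stayed at 95.9 FPKM or more throughout, and Bub3 ended at 21.2 and 24 FPKM in null against 11.7 and 12.9 FPKM in WT oocytes.

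Between the growing and GV stages the largest falls were those of Bub1 and Bub3 in Zar1/2-null oocytes, to 50.2% and 53.2% of their growing means. In WT oocytes 1 of 6 members passed the test, Bub1, which fell by 0.68 ± 0.17 on the log2(FPKM + 1) scale (SE, adjusted p = 0.0142, limma with Benjamini-Hochberg adjustment over all genes tested), where 28.7% of genes were called lower. The median of all genes was -0.29 and the other 5 members lay between -0.50 for Ttk and 0.05 for Bub1b, of which Mad2l1 and Bub3 turned from -0.20 and -0.37 to 0.19 and 0.02 without ERCC scaling. Between the same stages 3 of 6 members were called lower in Zar1/2-null oocytes, against 55.9% of all genes and with an all-gene median of -0.50. They were Bub1 (-0.96 ± 0.17, limma adjusted p = 0.00072), Bub3 (-0.91 ± 0.18, limma adjusted p = 0.00156) and Mad1l1 (-0.49 ± 0.18, limma adjusted p = 0.0349). Without ERCC scaling limma called no member in WT (1 at an unadjusted p under 0.05), where 3.23% of all genes were called lower. In null oocytes Bub1 was then still called lower (-0.43, limma adjusted p = 0.0448), as were 21.3% of genes, while Bub3 (-0.36, limma adjusted p = 0.0509) and Mad1l1 (0.01) were not called. Mad2l1 was called higher on that scale (0.54, limma adjusted p = 0.0138), as were 14.3% of genes. Leaving out any of 3 WT libraries (growing replicate 1 or 2, or GV replicate 2) took the WT call of Bub1 away, with limma adjusted p-values of 0.0721, 0.0568 and 0.115. The call of Mad1l1 in null oocytes was likewise lost without growing replicate 1 or 2 or GV replicate 1 (limma adjusted p = 0.0524, 0.168 and 0.192).

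Between GV and MII the members divided. In WT oocytes all 6 were called lower on the deposited scale, as were 93.4% of all genes, and the sizes are what separated them. Ttk and Bub1 fell the most, to 6.51% and 7.01% of their GV means, with log2 changes of -3.76 ± 0.23 and -3.41 ± 0.17 (limma adjusted p = 2.76e-08 and 6.21e-09). Mad1l1 kept 11.6% and Bub3 14.6%, with log2 changes of -2.37 ± 0.18 and -2.67 ± 0.18 (limma adjusted p = 1.97e-07 and 7.94e-08). Bub1b kept 47% (-1.08 ± 0.15, limma adjusted p = 3.74e-05) and Mad2l1 66.4% (-0.58 ± 0.20, limma adjusted p = 0.0184). The median over the 4914 genes with a GV mean of at least 10 FPKM was 18.8%, so that 4 members lay below it and 2 above. Without ERCC scaling the sign of these 2 turned, with FPKM then relative to the rest of the library and not to the sample of oocytes. Mad2l1 was higher at MII by 1.17 ± 0.15 on that scale (limma adjusted p = 2.52e-05) and Bub1b by 0.66 ± 0.18 (limma adjusted p = 0.0058). The other 4 were still called lower. Of these, Ttk changed the most (-2.14), and Bub3 kept 49.6% of its GV mean on that scale. On that scale 19.7% of all genes were called higher and 47.6% lower. The call of Mad2l1 on the deposited scale was lost without WT GV replicate 1 (limma adjusted p = 0.169) or without WT MII replicate 2 (limma adjusted p = 0.125).

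The same comparison in Zar1/2-null oocytes called 4 of 6 members lower at MII than at GV, against 68.7% of all genes. Ttk kept 9.57% of its GV mean, Bub1 10.7%, Mad1l1 19.6% and Bub3 43%, where the median of 4011 genes was 36%. Mad2l1 kept 80.9% and Bub1b 90.5%, and neither was called (log2 changes of -0.31 ± 0.20 and -0.14 ± 0.15, limma adjusted p = 0.196 and 0.418), although both Mad2l1 MII values lay below its GV values. Without ERCC scaling both were called higher, by 0.75 (limma adjusted p = 0.00101) and 0.91 (limma adjusted p = 0.000912), and Bub3 was no longer called (-0.14, limma adjusted p = 0.363), where 19.5% of all genes were called higher and 40.5% lower. By a 3-fold rule on group means set to at least 1 FPKM, 4 members were lower at MII in WT (44.2% of all genes) and 3 in Zar1/2-null oocytes (27.5% of all genes), with a difference in 1 gene, Bub3, which was 6.86-fold lower in WT and 2.32-fold lower in null oocytes.

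**Figure D2:**
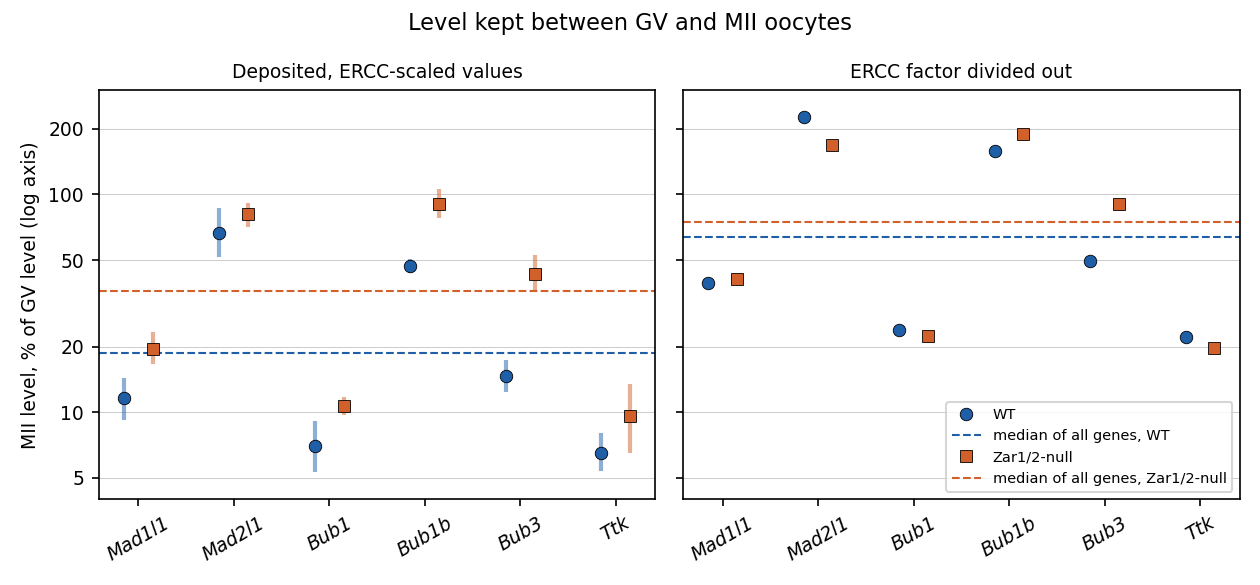
The mean MII level of each checkpoint gene as a percentage of its mean GV level, on a log axis, for WT (circles) and Zar1/2-null oocytes (squares); at left from the deposited values, with bars from the lowest to the highest ratio of 1 MII library to 1 GV library, and at right with the ERCC factor divided out, with dashed lines for the median of all genes at a GV mean of 10 FPKM or more. Mad2l1 and Bub1b lay above the median and Ttk, Bub1 and Mad1l1 below it in all 4 series, whereas Bub3 was at 14.6% in WT and 43% in null oocytes.

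Mad2l1 and Bub1b, which kept the largest shares, were the members whose 3′ ends printed above held an element in the last 100 bases. Among kept genes with a WT GV mean of at least 10 FPKM, the median share kept in WT oocytes was 37.3% (quartiles 17.7% and 52.9%) for the 952 genes with an element in that window and 16.8% (quartiles 5.46% and 39.8%) for the 3357 without. In Zar1/2-null oocytes the medians of the same genes were 59.2% and 34.7%. Bub1b and Mad2l1 thus lay above the median of genes with the element in both genotypes, and the part of the element in their levels was not tested. The split counted any element in the window, also one downstream of the signal as in Mad2l1. In the study's poly(A) tail assay, tails of selected maternal mRNAs lengthened during maturation in WT oocytes but not in the null. The libraries were primed on poly(A) with oligo-dT, so the shares kept are shares of FPKM. The part of tail length in them was not tested.

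In growing oocytes 1 member, Mad2l1, was called lower in null oocytes than in WT (-0.62 ± 0.20, limma adjusted p = 0.0366), where 24.4% of all genes were. The other 5 had log2 changes from -0.51 for Ttk to -0.13 for Bub3 with limma adjusted p-values from 0.0926 to 0.602, against an all-gene median of -0.16, and without ERCC scaling Bub3 (0.15) and Mad1l1 (0.03) turned sign. In 4 members both null values lay below both WT values, which held for 47.4% of genes. Mad2l1 was not called without ERCC scaling (-0.33, limma adjusted p = 0.115), where 12.3% of all genes were called lower, nor without WT growing replicate 1 or 2 or null growing replicate 2 (limma adjusted p = 0.188, 0.0808 and 0.256).

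At the GV stage 3 members were called lower in Zar1/2-null oocytes, as were 40.6% of all genes. They were Bub1 (23.1 against 37.6 FPKM, -0.68 ± 0.17, limma adjusted p = 0.00899), Bub3 (52.6 against 84.1 FPKM, -0.67 ± 0.18, limma adjusted p = 0.013) and Bub1b (155 against 219 FPKM, -0.50 ± 0.15, limma adjusted p = 0.0223). Ttk, Mad2l1 and Mad1l1 had log2 changes of -0.54, -0.43 and -0.25 (limma adjusted p = 0.0734, 0.11 and 0.272). All 6 had both null values below both WT values, as did 63.6% of all genes. With the all-gene median at -0.38, the members lay from 0.30 below to 0.12 above it, and without ERCC scaling limma called no member (0 also at an unadjusted p under 0.05) and Mad1l1 and Mad2l1 turned sign (0.16 and 0.02), where 13.5% of all genes were called lower and 7.19% higher. Without WT GV replicate 1 none of the 3 calls was kept, and null GV replicate 1 also decided those of Bub1 and Bub3 (limma adjusted p = 0.0516 and 0.0925). The call of Bub1b was also lost without WT GV replicate 2 (limma adjusted p = 0.0639) or without null GV replicate 2 (limma adjusted p = 0.102).

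At MII the difference lay in the other direction for 2 members. Bub3 was higher in Zar1/2-null oocytes (22.6 ± 1.96 against 12.3 ± 0.859 FPKM, SD, n = 2 in each group), with a log2 change of 0.83 ± 0.18 (limma adjusted p = 0.00452). Bub1b was higher as well (140 ± 15.3 against 103 ± 9.71 FPKM, SD, n = 2 in each group), with 0.44 ± 0.15 (limma adjusted p = 0.0463). Of all genes 21.5% were called higher at this stage, and the all-gene median was 0.06. In 3 members (Bub3, Bub1b and Mad1l1) both null values lay above both WT values, as in 43.5% of all genes. The rise of Bub3 was also called without ERCC scaling (0.63 ± 0.13, limma adjusted p = 0.00187, 24.6% of all genes higher) and with the libraries set to a common median (0.51, limma adjusted p = 0.026, 23.8% of all genes higher), and it was kept without any 1 of the 12 libraries. The call of Bub1b was not kept without ERCC scaling (0.21, limma adjusted p = 0.365), and leaving out any of 10 libraries took it past the threshold, with limma adjusted p-values up to 0.242. Mad1l1 (0.29), Ttk (-0.03), Bub1 (-0.06) and Mad2l1 (-0.16) were not called on the deposited scale. Of these, Mad2l1 was called lower without ERCC scaling (-0.40, limma adjusted p = 0.0398), as were 23.4% of all genes. With a common median Mad2l1 (-0.53, limma adjusted p = 0.0437) and Bub1 (-0.42, limma adjusted p = 0.0374) were called lower, as were 3436 of 11502 genes. No member differed by more than 3-fold between genotypes at any stage, a size passed by 3.54% of genes in growing and 4.2% in GV oocytes in the lower direction and by 7.49% in the higher direction at MII.

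**Figure D3:**
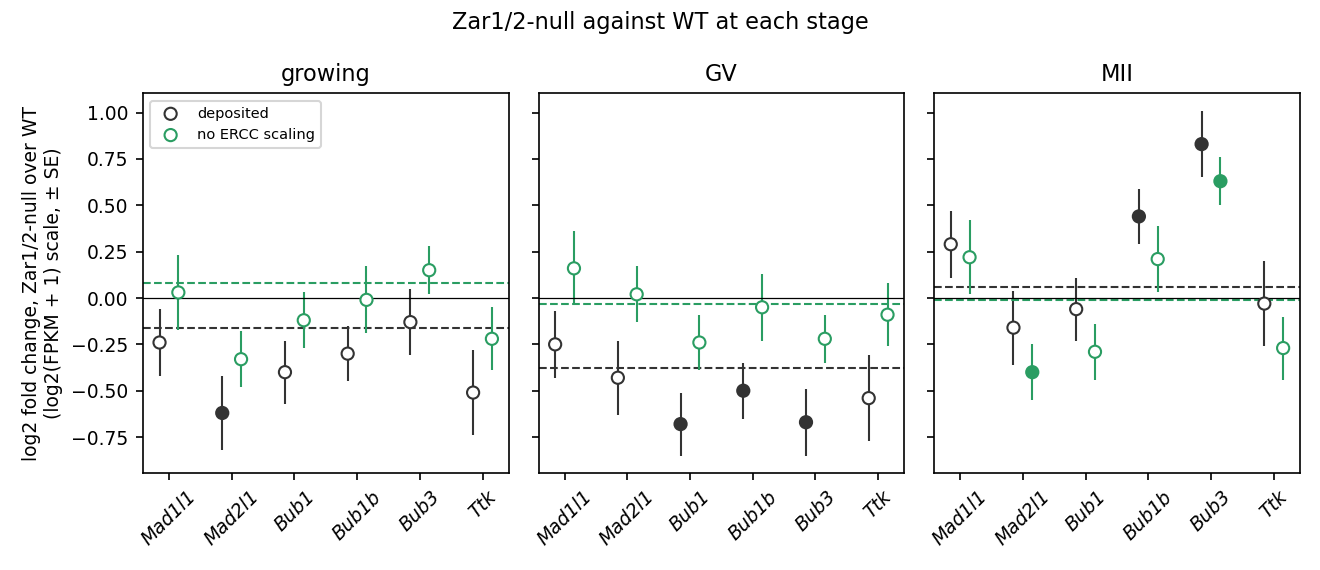
The log2 fold change of each checkpoint gene in Zar1/2-null against WT oocytes at each stage, on the log2(FPKM + 1) scale, with bars of 1 SE, from the deposited values (black) and with the ERCC factor divided out (green); filled points passed a limma adjusted p of 0.05 and dashed lines mark the median of all genes. The black points lay below 0 in growing and GV oocytes, and Bub3 was the only member filled on both scales, at MII (0.83 and 0.63).

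The change of the genotype effect between stages was tested directly with interaction terms. From GV to MII it rose for Bub3 by 1.50 ± 0.26 (limma adjusted p = 0.00125) and for Bub1b by 0.94 ± 0.22 (limma adjusted p = 0.00704), where 33.9% of genes were called in that direction and the all-gene median was 0.48. The other 4 members had differences from 0.27 for Mad2l1 to 0.62 for Bub1, with limma adjusted p-values from 0.0685 to 0.485, and those of Mad2l1, Bub1 and Ttk turned sign without ERCC scaling. From growing to MII the same 2 members were called, Bub3 at 0.97 ± 0.26 (limma adjusted p = 0.016) and Bub1b at 0.74 ± 0.22 (limma adjusted p = 0.0239), against 25.3% of all genes. Without ERCC scaling Bub3 was still called between GV and MII (0.86 ± 0.18, limma adjusted p = 0.00586, 15.1% of all genes called higher) and Bub1b was not (0.25, limma adjusted p = 0.529), and between growing and MII neither was. Both calls between GV and MII were kept without any 1 library. Between growing and MII the call of Bub3 was lost without WT growing replicate 2, WT MII replicate 2, null growing replicate 2 or null MII replicate 1 (limma adjusted p from 0.0542 to 0.0662). That of Bub1b was lost without WT growing replicate 2, WT MII replicate 1, null growing replicate 1 or null MII replicate 2 (limma adjusted p from 0.0625 to 0.0872). From growing to GV limma called 0 members, where 2.58% of all genes were called higher and 11.3% lower. Likewise 0 members had an unadjusted p under 0.05, with 0.0628 for Bub3 the lowest. With the libraries set to a common median, neither Bub3 nor Bub1b was called from GV to MII (limma adjusted p = 0.0883 and 0.973). From growing to MII these 2 were not called on that scale either (limma adjusted p = 0.162 and 0.531).

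Ratios of members within 1 library do not depend on the spike-in factor. Bub1b over Bub1, the gene of BUBR1 over that of its kinase relative, was 3.21 and 3.8 in WT growing, 5.17 and 6.63 in WT GV and 43.1 and 36.1 in WT MII libraries. The same ratio in Zar1/2-null libraries was 3.33 and 4.25, 7.73 and 5.82, and 50.6 and 63.3, so that it was many times higher at MII than at GV in both genotypes and did not overlap between them at MII. Bub3 over Bub1 was 5.78 and 3.83 in WT MII and 9.4 and 8.9 in Zar1/2-null MII libraries, against 1.69 to 2.44 in all 8 earlier libraries. Mad2l1 over Mad1l1, the bound partner over its platform, was 163 and 95.1 in WT MII and 81.4 and 76.4 in null MII libraries, lower in null oocytes without overlap. Ttk over Bub1 moved little, from 2.36 to 3.6 over all 12 libraries, and overlapped between genotypes at MII. Both are kinases, and both lacked the element in the last 100 bases, as did Bub3 and Mad1l1. The part of either trait in these ratios was not tested. With 2 libraries against 2, an exact permutation test cannot give a p below 0.333, and no p is given for these ratios.

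**Figure D4:**
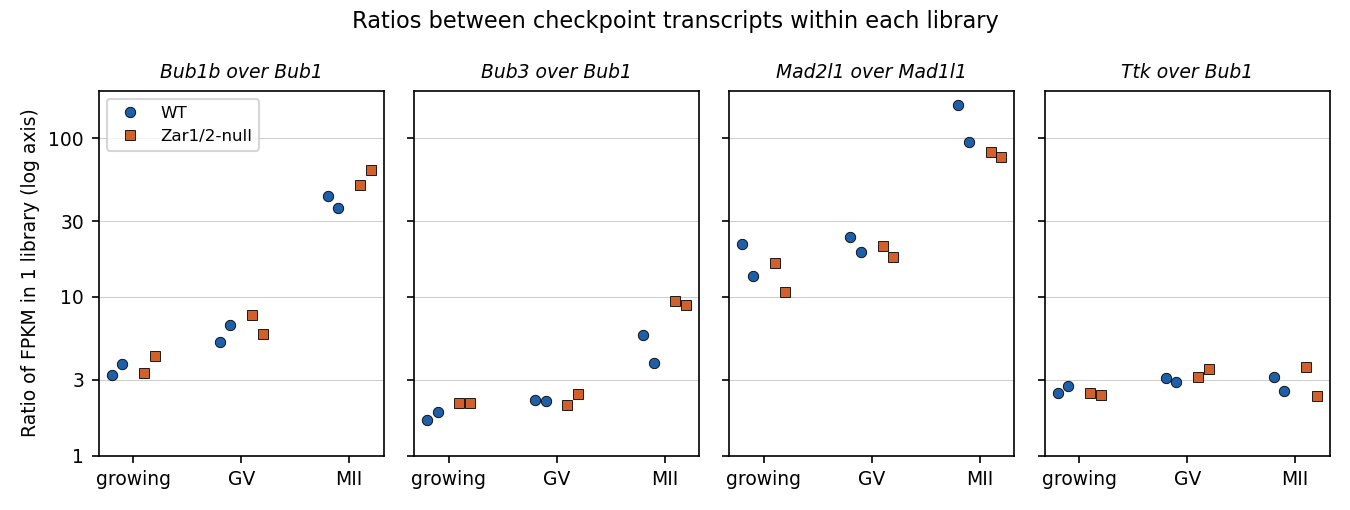
Ratios of FPKM between pairs of checkpoint genes within each library, on a log axis against stage, for WT (circles) and Zar1/2-null oocytes (squares). The ratio of Bub1b to Bub1 went from at most 7.73 at GV to at least 36.1 at MII, that of Bub3 to Bub1 was 8.9 and 9.4 in null against 3.83 and 5.78 in WT MII libraries, and that of Ttk to Bub1 stayed between 2.36 and 3.6.

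The genes closest in pattern to each member were sought by Pearson's r of log2(FPKM + 1) over the 12 libraries, among 5890 genes averaging 5 FPKM or more. Thumpd3 was among the 3 closest to both Bub1 and Ttk (r = 0.998 for each), and Cirh1a was closest to Ttk (r = 0.999). For Mad1l1 the closest were Efcab6, Btrc and Acot11 (r = 0.998 each), and for Bub3 they were Srp9, Scp2 and Ccdc109b (r = 0.997, 0.995 and 0.995). Trappc2 was closest to Mad2l1 (r = 0.991) and Bod1l and Papd7 to Bub1b (r = 0.980 and 0.977). These values are descriptive, since the libraries share their stage and spike-in factor and most genes fell at MII together.

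Genes that act with the checkpoint were counted from 4 lists, of which 57 genes were kept. In growing oocytes 13 were called lower and 3 higher in the null than in the WT, at GV 26 lower and 1 higher, and at MII 5 lower and 22 higher. Of all genes 24.4%, 40.6% and 10.3% were called lower at these stages and 10.6%, 2.83% and 21.5% higher. The median log2 change of the 57 was -0.24, -0.43 and 0.14 at the 3 stages, and that of all genes -0.16, -0.38 and 0.06. Without ERCC scaling the counts were 3 lower and 4 higher in growing oocytes, where 12.3% and 14.9% of all genes were called. At GV they were 3 lower and 4 higher (13.5% and 7.19% of all genes), and at MII 14 lower and 21 higher (23.4% and 24.6%). On the deposited scale lower calls outnumbered higher ones before maturation, among the 57 as among all genes. Without ERCC scaling they did not among the 57.

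In the list of checkpoint partners and silencing factors, 4 of 8 were called higher and 2 lower at MII, against 4 and 3 without ERCC scaling. Of all genes 21.5% were called higher and 10.3% lower there, and 24.6% and 23.4% without ERCC scaling. Cdc20, the target of the checkpoint complex and activator of the anaphase-promoting complex, was at 63.1 FPKM in Zar1/2-null and 30.1 FPKM in WT MII oocytes (1.05 ± 0.23, limma adjusted p = 0.00493). Zfp207, encoding BuGZ, a protein that binds and loads BUB3 at kinetochores, was lower in null oocytes at all 3 stages, at 87.9 against 173 FPKM in growing, 43.6 against 108 FPKM in GV and 12.7 against 26.7 FPKM in MII oocytes (limma adjusted p = 0.00407, 0.00076 and 0.00286). Zfp207 was therefore opposite in direction to Bub3 at MII, and its 3 calls were kept without ERCC scaling. Nup98 was called lower in growing and GV oocytes (-0.67 and -0.73, limma adjusted p = 0.00726 and 0.00373), but neither call was kept without ERCC scaling (-0.40 and -0.33, limma adjusted p = 0.159 and 0.288). Mad2l2 and Rae1 were called higher at MII on both scales (0.89 and 0.75 as deposited, limma adjusted p = 0.00169 and 0.0074).

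Among 15 kinetochore genes, 4 were called lower in growing, 5 in GV and 2 in MII oocytes, and 3 were called higher at MII. Of all genes 24.4%, 40.6% and 10.3% were called lower at these stages, and 21.5% higher at MII. Without ERCC scaling 0 were called lower in growing, 1 in GV and 6 in MII oocytes, and 3 higher at MII. Spc24, a subunit of the NDC80 microtubule-binding complex, differed most, at 23.9 FPKM in null and 2.19 FPKM in WT MII oocytes (2.95 ± 0.19, limma adjusted p = 2.84e-07). Pmf1 and Ndc80 were higher as well (1.57 and 0.72, limma adjusted p = 1.01e-05 and 0.00646). Zw10, which tethers MAD1 to kinetochores through its complex, was lower in growing oocytes (-0.58, limma adjusted p = 0.0247) and in GV oocytes (12.3 FPKM in null and 25.9 FPKM in WT, limma adjusted p = 0.00111). At both stages the kinetochore proteins' genes Cenpf (-0.52 and -0.60, limma adjusted p = 0.0288 and 0.0123) and Cenpe (-0.57 and -0.40, limma adjusted p = 0.011 and 0.0455) were lower as well. Dsn1 was lower at GV and MII (-0.78 and -0.62, limma adjusted p = 0.00627 and 0.0241). Without ERCC scaling the GV value of Cenpe turned to 0.04, and the calls of Cenpf and Cenpe at both stages, Zw10 in growing and Dsn1 in GV oocytes were lost (limma adjusted p from 0.103 to 0.9).

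Of 14 kinases, phosphatases and passenger subunits, 7 were called lower at GV and 6 higher at MII, against 0 and 6 without ERCC scaling. The shares of all genes were 40.6% and 21.5%, and 13.5% and 24.6% without ERCC scaling. Aurkb, the mitotic Aurora kinase of centromeres, was higher in null oocytes at every stage (0.80, 0.59 and 1.73, limma adjusted p = 0.00919, 0.0329 and 4.23e-05), whereas its germ-cell relative Aurkc was lower in growing and GV oocytes (-1.32 and -0.71, limma adjusted p = 0.000408 and 0.0119). Birc5, encoding the passenger subunit survivin, stood at 564 FPKM in null and 54.6 FPKM in WT MII oocytes (3.34 ± 0.17, limma adjusted p = 5.14e-08). Before maturation Birc5 was called lower in null growing and GV oocytes (-0.51 and -0.50, limma adjusted p = 0.0377 and 0.0334). Neither of these 2 calls was kept without ERCC scaling (limma adjusted p = 0.182 and 0.813). Ppp1cc and Ppp2r5c, of the phosphatases that oppose the checkpoint kinases, were lower at GV (-0.95 and -0.64, limma adjusted p = 0.00302 and 0.00944). Without ERCC scaling neither was called (limma adjusted p = 0.159 and 0.512), nor was Aurkc at GV (-0.26, limma adjusted p = 0.299).

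Of 20 genes of the anaphase-promoting complex and its substrates, 10 were called lower at GV and 9 higher at MII, against 0 and 8 without ERCC scaling. The shares of all genes were 40.6% and 21.5%, and 13.5% and 24.6% without ERCC scaling. Anapc13 was at 66.3 FPKM in null and 1.98 FPKM in WT MII oocytes, a 33.4-fold difference (4.51 ± 0.23, limma adjusted p = 4.85e-08), and Anapc5 and Anapc11 were 8.27-fold and 6.94-fold higher (limma adjusted p = 9.42e-07 and 4.53e-07). All 3 subunits differed more at MII than Bub3 (0.83), the checkpoint gene with the largest change there. Ccnb1, encoding the cyclin B1 that the complex destroys, was lower in growing and GV oocytes (-0.66 and -0.71, limma adjusted p = 0.033 and 0.0203) and at 342 FPKM in null and 344 FPKM in WT MII oocytes. Anapc16 and Anapc7 were lower in growing oocytes (-0.85 and -0.58, limma adjusted p = 0.00259 and 0.0316). Ube2c and Anapc10 were lower at GV (-0.79 and -0.69, limma adjusted p = 0.00569 and 0.00851). At MII Anapc10 was lower (-0.60, limma adjusted p = 0.0205), and Fzr1 was higher in growing oocytes (0.82, limma adjusted p = 0.00897). Without ERCC scaling the calls of Ccnb1 at both stages, Anapc7 in growing, and Ube2c and Anapc10 in GV oocytes were lost (limma adjusted p from 0.0912 to 0.274).

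**Figure D5:**
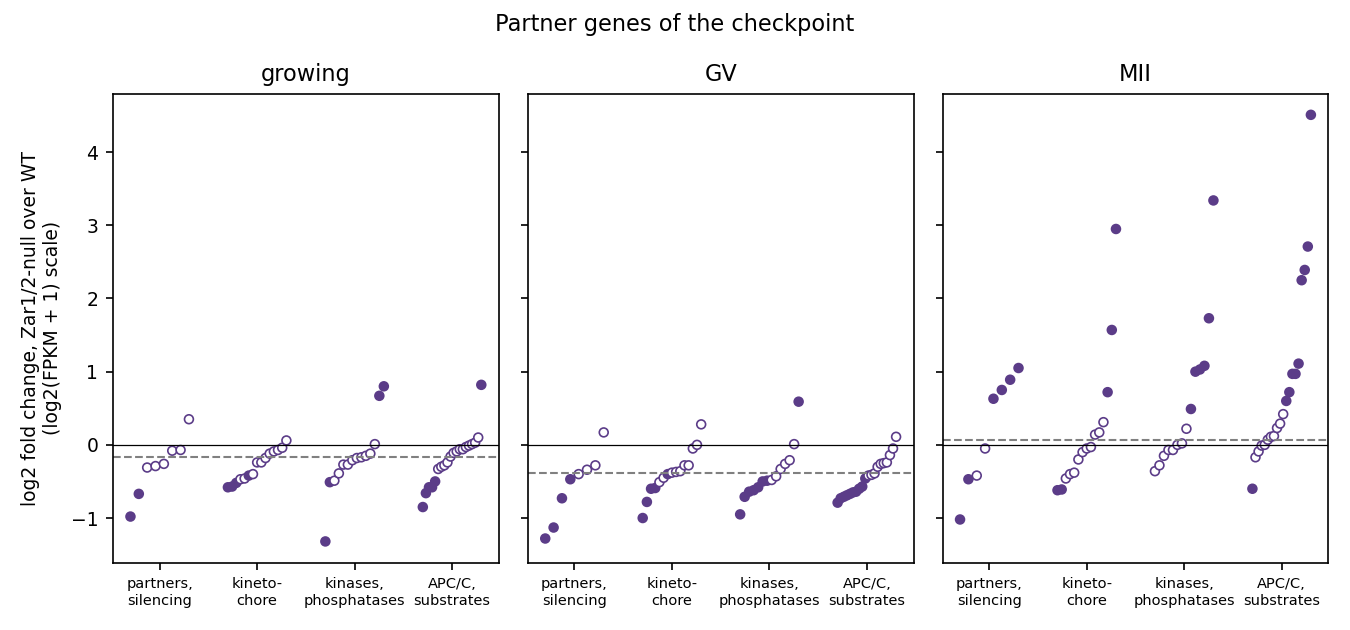
The log2 fold change in Zar1/2-null against WT oocytes at each stage, on the log2(FPKM + 1) scale, of the 57 partner genes in 4 lists (1 point per gene, ordered by value within a list); filled points passed a limma adjusted p of 0.05 and the dashed line marks the median of all genes. On the deposited scale plotted, filled points lay mostly below 0 in growing and GV oocytes (13 and 26 lower, against 3 and 3 without ERCC scaling) and mostly above 0 at MII (22 higher), up to 4.51 for Anapc13.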

How the data were processed

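Each sample was 10 mouse oocytes lysed with ERCC spike-in RNA and copied to cDNA by oligo-dT-primed Smart-seq2. The part of poly(A) tail length in the differences between stages and genotypes was not tested. The authors deposited 1 table of FPKM values (fragments scaled for transcript length and library size) from TopHat2 2.1.1 and Cufflinks 2.2.1 on mm9, multiplied by a spike-in factor per library. The factors were recovered from the deposited FPKM values, which returned to 6-digit values in 100% of cases. Genes at 0 can be failed estimates. The table holds no counts, and depth, estimated from the steps that 1 fragment makes in low genes, was 9410000 to 12700000 fragments per library. The SD between the 2 libraries of a group was above the larger of their estimated counting errors in 33 of 36 combinations of gene and group, and not for Bub1 in Zar1/2-null MII or Bub3 and Ttk in WT growing oocytes. Both WT growing libraries have a factor of 1, so each numbered set was scaled to its own WT growing library, which ties the same-numbered libraries in scale.

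The 11502 genes that reached 1 FPKM in any library were tested with limma 3.58.1 in R 4.3.3 on log2(FPKM + 1), which understates changes of low genes, with 1 term per group over 12 libraries, an intensity trend and Benjamini-Hochberg adjustment. On simulated data for the GV comparison, 94% of 200 genes changed 3-fold among 11502 were recovered, with 10 false calls. The changed genes were drawn from those above an average of 10 FPKM, and the noise was independent between libraries. No member differed 3-fold between genotypes, so this share does not cover changes of their size. Alternatives were other scalings (no ERCC factor, a common median), pseudocount, filters, no trend, a replicate block, the 4 libraries of a comparison alone and each library left out. Named genes are the 6 members, Zar1 and Zar1l, for each partner list, genotype comparison and direction up to 3 called genes of largest change whose higher group averaged 10 FPKM or more, and the genes closest in pattern. The members and lists were chosen with earlier results of these data known. Usp44 of the lists did not pass the filter, and Anapc15 was not analysed here. Only the exons of Mad1l1 overlap another gene model (Gm16121), and strand was not used in the counting as far as the sources say.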

Additional observations from a re-analysis of the deposited data

Results flagged for a closer look

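The effect of the genotype differed between stages for 2 of the 6 checkpoint genes, by interaction terms in limma with Benjamini-Hochberg adjustment over all genes. For Bub3 the log2 change in Zar1/2-null against WT oocytes was 1.50 ± 0.26 higher at MII than at GV (limma adjusted p = 0.00125) and 0.97 ± 0.26 higher at MII than in growing oocytes (limma adjusted p = 0.016). For Bub1b the differences were 0.94 ± 0.22 (limma adjusted p = 0.00704) and 0.74 ± 0.22 (limma adjusted p = 0.0239). The all-gene medians of these differences were 0.48 and 0.26, and 33.9% and 25.3% of all genes were called higher. Without ERCC scaling only the MII minus GV difference of Bub3 was still called (0.86, limma adjusted p = 0.00586). With the libraries set to a common median neither gene was called in either difference. Groups of 2 libraries are too small for a test of outlying samples, and no value outside the table was used.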

How the results depend on the processing

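Without ERCC scaling limma called 0 checkpoint genes between genotypes in growing oocytes (1 at an unadjusted p under 0.05), 0 at GV (0 unadjusted) and 0 between WT GV and growing oocytes (1 unadjusted), 1 in the MII minus GV difference of the genotype effect and 0 in the MII minus growing one (1 unadjusted), and 2 genes instead of 4 passed the 3-fold rule between WT MII and GV. With libraries set to a common median the corresponding limma calls were 0, 0, 0, 0 and 0 (0, 0, 2, 2 and 0 unadjusted). With no filter on low values, in which more genes are adjusted for, the growing comparison gave 0 (3 unadjusted). With the 4 libraries of a comparison alone, in which fewer libraries estimate the spread, GV gave 0 (3 unadjusted) and MII gave 1. Leaving out 1 library gave 0 to 1 calls between genotypes in growing, 0 to 4 in GV and 1 to 2 in MII oocytes, 0 to 1 in WT and 2 to 4 in null oocytes between growing and GV, 5 to 6 in WT and 4 in null oocytes between GV and MII, and 0, 2 to 3 and 0 to 2 in the 3 differences of the genotype effect (GV minus growing, MII minus GV, MII minus growing).

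Signs turned mainly with the scaling, since its factors differ between the groups. Without ERCC scaling, log2 changes of the opposite sign were 0.03 (Mad1l1) and 0.15 (Bub3) between genotypes in growing oocytes, 0.16 (Mad1l1) and 0.02 (Mad2l1) at GV, 0.19 (Mad2l1) and 0.02 (Bub3) between WT GV and growing, 1.17 (Mad2l1) and 0.66 (Bub1b) between WT MII and GV, 0.01 (Mad1l1), 0.54 (Mad2l1), 0.40 (Bub1b) and 0.02 (Ttk) between null GV and growing, and 0.75 (Mad2l1) and 0.91 (Bub1b) between null MII and GV. Those of the genotype effect were 0.13 (Mad1l1) and 0.13 (Ttk) for GV minus growing, -0.42 (Mad2l1), -0.05 (Bub1) and -0.17 (Ttk) for MII minus GV, and -0.07 (Mad2l1), -0.17 (Bub1) and -0.05 (Ttk) for MII minus growing. With a common median they were 0.04 (Bub3) in growing oocytes, 0.29 (Mad1l1), 0.16 (Mad2l1), 0.09 (Bub1b) and 0.04 (Ttk) at GV, 0.15 (Mad2l1) between WT GV and growing, 2.12 (Mad2l1) and 1.61 (Bub1b) between WT MII and GV, 0.21 (Mad1l1), 0.75 (Mad2l1), 0.61 (Bub1b) and 0.22 (Ttk) between null GV and growing, and 1.43 (Mad2l1), 1.59 (Bub1b) and 0.53 (Bub3) between null MII and GV. Those of the genotype effect were 0.36 (Mad1l1), 0.12 (Bub1), 0.21 (Bub1b) and 0.37 (Ttk) for GV minus growing, -0.18 (Mad1l1), -0.69 (Mad2l1), -0.32 (Bub1), -0.01 (Bub1b) and -0.44 (Ttk) for MII minus GV, and -0.09 (Mad2l1), -0.19 (Bub1) and -0.07 (Ttk) for MII minus growing. Bub3 kept its sign at MII and in both MII differences under each scaling.

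Leaving out 1 library turned the sign of changes that had not been called with all libraries on the deposited scale, with ranges of -0.27 to 0.00 (Bub3, growing), -0.22 to 0.11 (Bub1) and -0.34 to 0.28 (Ttk) at MII, -0.43 to 0.03 (Mad2l1) and -0.02 to 0.11 (Bub1b) between WT GV and growing, -0.20 to 0.18 (Mad2l1) between null GV and growing, and -0.24 to 0.21 (Mad1l1), -0.04 to 0.42 (Mad2l1) and -0.24 to 0.17 (Ttk) for GV minus growing. No trend, another pseudocount (0.1 FPKM) and a filter at a mean of 5 FPKM turned no sign and kept each count within 1.5 times. Deviations of same-numbered replicates correlated weakly (r from -0.117 to 0.163 over 15 pairs of groups, 13 above 0 and 4 over 0.1), which does not settle whether the numbers pair the samples, although the spike-in scaling ties them. A replicate block left each count of calls in the 10 comparisons within 1.5 times (4 in place of 3 at GV, with Mad2l1 called at a limma adjusted p of 0.0354), and the pairing crossed at GV, chosen after seeing the data, gave 5 at GV, 2 between genotypes in growing oocytes, 4 between null GV and growing and 5 between null MII and GV. Depth limited Mad1l1 most, with 9.48% counting error in WT MII replicate 1.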
